A study of Homo sapiens with 3 samples.

Results

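The 10 genes described here belong to the BCL2 family of apoptosis regulators and were chosen by their symbols: BCL2, BCL2L1, MCL1, BCL2A1, BAX, BAK1, BCL2L11, BBC3, PMAIP1 and BID. Each was found once among the 58735 genes of the deposited table, and 9 of them averaged an FPKM of 1 or more over the libraries. FPKM counts fragments relative to the length of a gene and to a size set for each library. BCL2 averaged 0.691 and lay below that limit.

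The family decides whether the outer membrane of the mitochondrion is opened, the step that commits a cell to intrinsic apoptosis. Its anti-apoptotic proteins hold the effectors BAX and BAK in check. The BH3-only proteins sense stress and either occupy the anti-apoptotic proteins or activate the effectors directly, after which cytochrome c escapes and caspases are switched on. Carcinoma cells often depend on MCL1 or BCL-XL, and BCL2A1 and BCL2L1 are textbook targets of NF-κB.

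The study holds 3 libraries of HCT116, an established line from a human colorectal carcinoma, and each group has 1 library. The groups were an empty vector control, overexpression of wild-type ZEB1 (WT), and overexpression of ZEB1 K80R, in which a lysine of this transcription factor of the epithelial-mesenchymal transition is replaced by arginine. All 3 carry the treatment label "control". The labels do not give the vector, its promoter, or whether the overexpressing cells are a clone or a pool. No group has a replicate, so differences were not tested and carry no p-value. In bulk RNA, fewer cells with a transcript and less of it per cell cannot be told apart.

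The reads behind the FPKM values numbered between 13479517 and 14764535 per library. Where 3 values follow each other below, they stand in the order empty vector, WT, K80R. ZEB1 itself had an FPKM of 5.66, 9.83 and 10.3. Of 10 colon epithelial markers, 8, among them EPCAM, CDH1 and CDX2, had 0 reads in every library, and only KRT8 and KRT18 were present, so the epithelial markers go against the labelled tissue and the cultures are called by their labels. None of 5 leukocyte and 3 endothelial markers averaged an FPKM of 1. The 4 fibroblast markers summed to 2.83, 3.37 and 2.38, and 2 of them averaged at least 1. These were COL1A1, at 1.70, 0.930 and 0.680, and PDGFRB, at 0.573, 2.19 and 1.54. Of 2 neuronal markers, NEFL stood at 71.9, 45.03 and 50.03, while SYP had only 0, 7 and 3 reads. The empty vector library differed in make-up from the other two. Mitochondrial genes took 1.29% of its reads against 7.77% and 9.75%, and it held 350 genes with exactly 1 read against 2705 and 2902. Whether its counting intervals are therefore too narrow was not tested.

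Intervals in brackets are exact 95% counting intervals from the reads, and they cover counting error only. A difference is counted below when FPKM + 1 differed by at least 1.5-fold between a pair of libraries, and a gene short of that is called within range. The 3 comparisons share libraries, so they are not independent of each other.

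MCL1 was the most abundant member in every library and BCL2 the least. The levels spanned from 0.437 FPKM for BCL2 in the WT library to 189 for MCL1 in the empty vector library. In the empty vector library the order was MCL1, BAX, PMAIP1, BCL2L1, BBC3, BID, BAK1, BCL2A1, BCL2L11 and BCL2, and only the intervals of BID and BAK1 overlapped between neighbours. In the WT library BCL2L1 stood above PMAIP1, and BCL2A1 stood in sixth place, level with BID within counting error. In the K80R library BCL2A1 was again in eighth place. There PMAIP1 and BCL2L1, BBC3 and BAK1, and BAK1 and BID overlapped as neighbours.

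**Figure D1:**
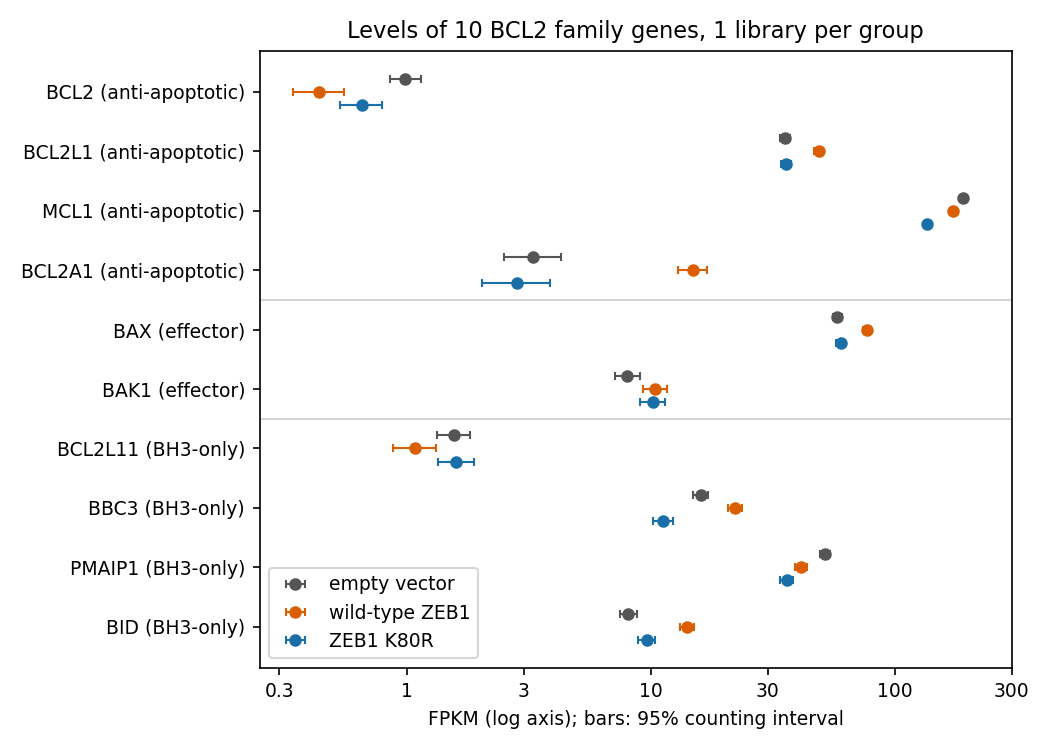
FPKM of the 10 BCL2 family genes (log axis) in the empty vector, WT and K80R libraries, 1 point per library with its 95% counting interval; grey lines divide the anti-apoptotic, effector and BH3-only genes. MCL1 lies highest, between 135 and 189 FPKM, and BCL2A1 is at 14.8 in the WT library against 3.29 and 2.83 in the others.

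Among the anti-apoptotic genes, BCL2A1 varied most, and it varied most of all 10 members. BCL2A1 (ENSG00000140379; GRCh38, chr15:79960889-79971446, minus strand) encodes BFL-1, a small protein that binds BH3-only proteins and holds off cell death. Its FPKM was 3.29 with empty vector (57 reads), 14.8 with WT (222 reads) and 2.83 with K80R (41 reads). The WT library was high and the other libraries were low, with overlapping intervals of 2.50 to 4.27 for empty vector and 2.03 to 3.83 for K80R.

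The ratio of BCL2A1 between WT and empty vector was 4.48 (3.34 to 6.11), and it was 3.26 when each library was scaled to a common sum of FPKM. Between K80R and empty vector it was 0.858 (0.560 to 1.30), an interval that holds 1. Relative to K80R, the WT library was 5.23-fold higher (3.73 to 7.49). On the scale of log2(FPKM + 1), the difference of −2.04 for K80R against WT stood at percentile 0.222 of the 12605 genes that averaged an FPKM of 1 or more. The difference of 1.88 for WT against empty vector stood at percentile 98.8.

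Of 10371 other protein-coding genes, those nearest to BCL2A1 in profile over the 3 libraries were TRAF1, BIRC3 and IL32. Their Euclidean distances from it, in centred log2(FPKM + 1), were 0.03, 0.06 and 0.11. TRAF1, an adaptor of TNF receptors, had an FPKM of 1.58, 8.74 and 1.30. BIRC3, an inhibitor of apoptosis protein, had 0.578, 4.56 and 0.429, and the cytokine gene IL32 had 0.745, 5.69 and 0.725. BIRC3 and IL32 passed the FPKM limit only through the WT library. A likeness over 3 libraries describes these profiles only.

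RefSeq start windows of 300 bases (250 before the start and 50 after, GRCh38.p14) were found for 9 of the 10 members, all but MCL1. They were searched on both strands for a TATA box (TATAAA), an AP-1 site (TGANTCA), a GC box (GGGCGG) and the κB consensus. The κB form searched was GGG, then A or G, any pair of bases, a pair that are each C or T, and CC. Also searched were an E-box bound by ZEB1 (CAGGTG, which reads CACCTG on the other strand) and the E-box CACGTG. No other form of a ZEB1 site was searched. A match is a description of letters and not of binding. A TATA box was in 11.5% of all 35116 windows, and in those of BCL2A1, where it begins 70 bases before the RefSeq start, and BCL2L1. The 30 bases around it are shown because BCL2A1 carries the largest difference, with the TATA box in capitals, on the minus strand at chr15:79971249-79971278, inside the first exon of a BCL2A1 transcript that starts further upstream in GENCODE.
BCL2A1: gaggaaggatatTATAAAgtgatgcaaaca
No member window held the κB consensus, which 11.3% of all windows held. A GC box was in 9 of the 14 member windows and in 44.95% of all windows. These member windows belonged to 6 members (BCL2L1, BAX, BAK1, BCL2L11, PMAIP1 and BID), and a member can have several windows.

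BCL2L1 (ENSG00000171552; chr20:31664452-31723989, minus strand) encodes BCL-XL and, by alternative splicing, the pro-apoptotic BCL-XS, which a value per gene does not separate. Its FPKM was 35.2 from 1855 reads, 48.6 from 2221 reads and 35.7 from 1577 reads. As with BCL2A1, the WT library was high while empty vector and K80R overlapped. The ratio was 1.38 (1.30 to 1.47) for WT against empty vector, 1.014 (0.947 to 1.08) for K80R against empty vector and 0.735 (0.689 to 0.785) for K80R against WT. None reached 1.5-fold. Scaled to a common sum, the first of these ratios was 1.004. Its antisense neighbour ABALON had 10, 20 and 17 reads.

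MCL1 (ENSG00000143384; chr1:150574551-150579738, minus strand) encodes a short-lived protein that holds BAK and BIM and that is lost quickly when synthesis stops. Its FPKM was 189 from 13108 reads, 172 from 10372 reads and 135 from 7871 reads. The K80R library was lowest, and none of the 3 intervals overlapped. The ratio was 0.911 (0.888 to 0.935) for WT against empty vector, 0.716 (0.696 to 0.736) for K80R against empty vector and 0.786 (0.763 to 0.809) for K80R against WT. At a common sum the ratios to empty vector were 0.663 and 0.528, which passes 1.5-fold in both. The median gene differed there by −0.42 and −0.41 on the log2 scale. Relative to it MCL1 differed by −0.18 and −0.51, short of 1.5-fold in both.

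BCL2 (ENSG00000171791; chr18:63123346-63320128, minus strand), the founding member, had an FPKM of 0.984 from 184 reads, 0.437 from 71 reads and 0.651 from 102 reads. It was highest in the empty vector library, where its interval did not overlap the others. The empty vector library stood 2.25-fold higher (1.70 to 3.003) than the WT library and 1.51-fold higher (1.18 to 1.95) than the K80R library, and K80R stood 1.49-fold higher (1.09 to 2.04) than WT. The pseudocount of 1 brings these ratios to 1.38, 1.202 and 1.15, so BCL2 lay within range on the scale used for the counts. In the same cells BCL2L1 exceeded BCL2 per length by 35.8-fold, 111-fold and 54.9-fold.

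The effector genes BAX and BAK1, whose proteins form the pores of the mitochondrial outer membrane, were within range in all 3 comparisons. BAX (ENSG00000087088; chr19:48954815-48961798, plus strand) stood at 58.0 FPKM from 2382 reads, 76.3 from 2724 reads and 59.9 from 2063 reads. The WT library was high and the other libraries overlapped. The ratio was 1.32 (1.25 to 1.39) for WT against empty vector, 1.03 (0.973 to 1.10) for K80R against empty vector and 0.784 (0.740 to 0.831) for K80R against WT. The first of these turned to 0.959 and the second to 0.761 at a common sum.

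BAX was the one member whose start window held CAGGTG, the only form of the ZEB1 E-box searched, which 20.6% of all windows held. It also held 4 copies of CACGTG, an E-box in 7.26% of all windows and also in those of BBC3 and BID. The 190 bases below precede every annotated exon of BAX (chr19:48954625-48954814, plus strand). They are shown because ZEB1 is the gene that was overexpressed, with CAGGTG and the first 2 copies of CACGTG in capitals. The ZEB1 E-box begins 103 bases before the RefSeq start.
BAX: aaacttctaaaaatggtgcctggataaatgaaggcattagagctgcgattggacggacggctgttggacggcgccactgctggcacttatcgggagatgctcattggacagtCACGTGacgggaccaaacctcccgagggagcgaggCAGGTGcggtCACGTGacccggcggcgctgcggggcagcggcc

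BAK1 (ENSG00000030110; chr6:33572547-33580293, minus strand) had an FPKM of 7.996 from 281 reads, 10.4 from 317 reads and 10.1 from 299 reads. The WT and K80R libraries overlapped, and both lay above empty vector with ratios of 1.30 (1.10 to 1.53) and 1.27 (1.07 to 1.499). K80R against WT was 0.977 (0.831 to 1.15), the only ratio of these libraries among the 10 members whose interval held 1. The ratios to empty vector at a common sum were 0.946 and 0.935, on the other side of 1. BAX exceeded BAK1 per length by 7.25-fold, 7.35-fold and 5.90-fold. The processed pseudogene BAK1P1, which could share reads with BAK1, had 0, 3 and 4 reads.

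The BH3-only genes differed in their patterns. BBC3 (ENSG00000105327; chr19:47220822-47232766, minus strand) encodes PUMA, which binds all the anti-apoptotic proteins. Its FPKM was 15.97 from 807 reads, 22.1 from 968 reads and 11.2 from 474 reads. The WT library was highest and the K80R library lowest, with no overlap of intervals. The ratio was 1.38 (1.26 to 1.52) for WT against empty vector and 0.7005 (0.624 to 0.786) for K80R against empty vector.

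Relative to K80R, the WT library held 1.97-fold more BBC3 (1.76 to 2.21), and at a common sum 1.95-fold more. The difference of −0.92 on the scale of log2(FPKM + 1) stood at percentile 1.44 of the genes compared. The ratio of WT to empty vector was 1.006 at a common sum, and that of K80R to empty vector 0.516. The genes nearest to BBC3 in profile were ZNF404, TIFA and CLIC3, at distances of 0.01, 0.03 and 0.04. ZNF404 had an FPKM of 2.26, 3.42 and 1.36, and TIFA, an adaptor that activates NF-κB, had 3.39, 5.10 and 2.15. The chloride channel gene CLIC3 had 2.19, 3.33 and 1.21.

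The 151 bases before the first annotated exon of BBC3 (chr19:47232767-47232917, minus strand) are shown because BBC3 is the other member that differed between K80R and WT. Its window was the one member window with an AP-1 site, which 7.71% of all windows held. The capitals mark a CACGTG E-box, beginning 232 bases before the RefSeq start, and the AP-1 site, beginning 113 bases before it.
BBC3: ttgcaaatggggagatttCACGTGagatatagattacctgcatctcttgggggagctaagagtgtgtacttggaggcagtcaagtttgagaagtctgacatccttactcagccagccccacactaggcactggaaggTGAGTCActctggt

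PMAIP1 (ENSG00000141682; chr18:59899948-59904306, plus strand) encodes NOXA, which binds MCL1 and BFL-1 and marks MCL1 for degradation. Its FPKM was 51.5 from 1829 reads, 41.1 from 1267 reads and 35.9 from 1068 reads. The order of the libraries was that of MCL1, and the 3 intervals did not overlap. The ratio was 0.798 (0.742 to 0.857) for WT against empty vector, 0.696 (0.645 to 0.751) for K80R against empty vector and 0.873 (0.804 to 0.948) for K80R against WT. With sums made equal, the ratios to empty vector were 0.581 and 0.513. MCL1 exceeded PMAIP1 per length by 3.66-fold, 4.19-fold and 3.77-fold.

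BID (ENSG00000015475; chr22:17734138-17774770, minus strand) encodes the protein that caspase-8 cleaves, which links death receptors to the mitochondrion. Its FPKM was 8.07 from 570 reads, 13.99 from 858 reads and 9.59 from 568 reads. The WT library was high, and K80R lay just above empty vector with no overlap of their intervals, 8.82 to 10.4 against 7.42 to 8.76. The ratio was 1.73 (1.56 to 1.93) for WT against empty vector, 1.19 (1.06 to 1.34) for K80R against empty vector and 0.686 (0.616 to 0.763) for K80R against WT. At a common sum they were 1.26, 0.876 and 0.694, so the call of BID in WT ended and K80R turned to below empty vector.

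BCL2L11 (ENSG00000153094; chr2:111119378-111168447, plus strand) encodes BIM, a direct activator of BAX and BAK whose level growth factor signalling holds down. Its FPKM was 1.56 from 165 reads, 1.08 from 99 reads and 1.59 from 141 reads. The WT library was low, in contrast to BBC3 and BID, and the other libraries overlapped. The ratio was 0.691 (0.533 to 0.892) for WT against empty vector, 1.02 (0.808 to 1.28) for K80R against empty vector and 1.47 (1.13 to 1.93) for K80R against WT. The extent of BCL2L11 overlaps that of MIR4435-2HG on the opposite strand, which had 611, 472 and 497 reads, and whether strand was used in counting is not stated in the labels. BCL2L11 has 25 annotated transcripts in GENCODE, and a union length of 6658 bases underlies its FPKM.

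For WT against empty vector, 2 of the 9 members above the FPKM limit were at least 1.5-fold higher (BCL2A1 and BID), and none was lower. Over all 12605 genes compared, 14.2% were higher and 11.1% lower by that measure. By counting error alone, the ratio differed from 1 for all 9, as it did for 68.9% of all genes compared. Including BCL2, 6 of 10 members lay above empty vector by this interval and 4 below (BCL2, MCL1, BCL2L11 and PMAIP1). Here and below, the all-gene share by the interval was taken in either direction only. Members above or below by the interval therefore have no background by direction. The median difference of log2(FPKM + 1) over all 10 was 0.37, against 0.01 over all genes compared. At a common sum of FPKM the median gene stood at −0.42. There BCL2A1 was the one member that was higher, and MCL1, BCL2L11 and PMAIP1 were lower. Of the 12605 genes compared, 984 were higher and 4818 lower at that setting. BAX and BAK1 turned from above to below empty vector.

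For K80R against empty vector, none of the 9 members was at least 1.5-fold higher or lower, where 12.6% of all genes compared were higher and 13.0% lower. The interval excluded 1 for 5 of the 9, against 68.5% of all genes compared. Including BCL2, the members above empty vector by the interval were BAK1 and BID, and those below were BCL2, MCL1, BBC3 and PMAIP1. The median over all 10 was −0.07, against 0.0045 over all genes. At a common sum, where the median gene stood at −0.41, MCL1, BCL2A1, BBC3 and PMAIP1 were lower by at least 1.5-fold. Of the 12605 genes compared, 922 were higher and 4721 lower at that setting. BCL2L1, BAX, BAK1, BCL2L11 and BID changed sides there. The part of the mitochondrial reads in the differences from empty vector was not tested.

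For K80R against WT, 2 of the 9 members were at least 1.5-fold lower (BCL2A1 and BBC3) and none was higher. Of all genes compared, 5.18% were lower and 4.42% higher. The interval excluded 1 for 8 of the 9, against 53.7% of all genes. Including BCL2, 7 of the 10 were lower in K80R by the interval, BCL2 and BCL2L11 were higher, and BAK1 was level within counting error. The share of all genes lower by the interval was not computed, so this lean has no background. The median difference over all 10 was −0.35, against −0.02 over all genes compared. No member changed direction at a common sum, where the median gene stood at −0.0037.

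**Figure D2:**
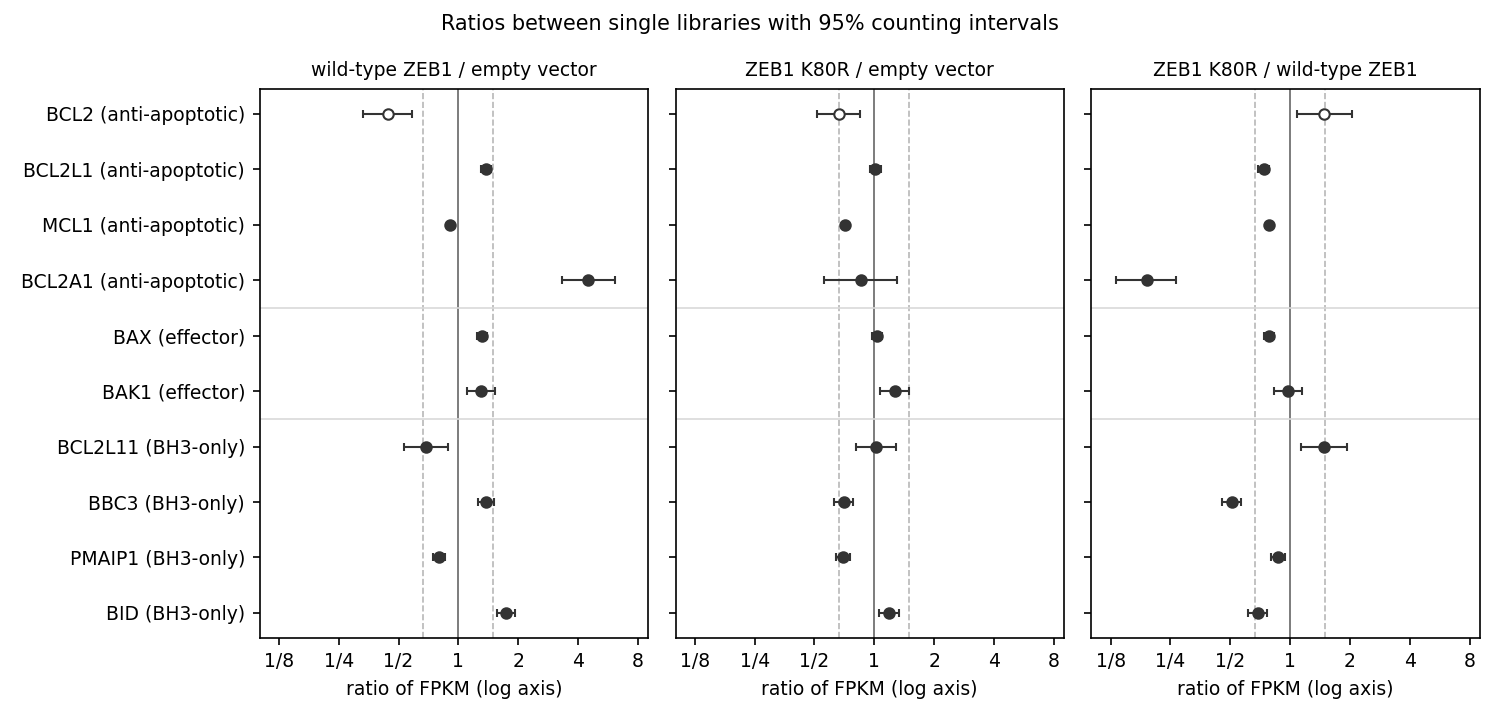
Ratio of FPKM between each pair of libraries (log axis) for the 10 genes, with 95% counting intervals; the solid line marks 1, the dashed lines a ratio of 1.5 in either direction, and the open symbol BCL2, whose mean FPKM was below 1. The dashed lines apply to FPKM, while differences were counted on FPKM + 1. BCL2A1 stands at 4.48 in the left panel and 0.191 in the right one, and BBC3 at 0.507 in the right one.

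**Figure D3:**
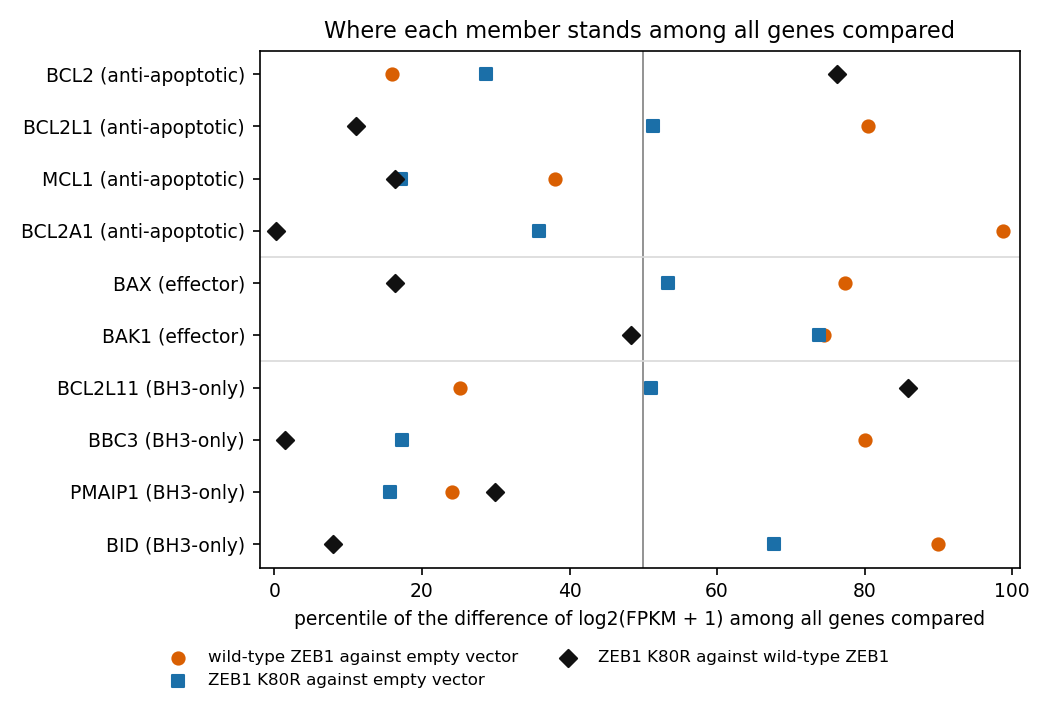
Percentile of each gene's difference of log2(FPKM + 1) among the 12605 genes compared, for the 3 comparisons. BCL2A1 lies at 98.8 for WT against empty vector and at 0.222 for K80R against WT, and BBC3 at 1.44 in the latter. BCL2, whose mean FPKM was below the limit, is placed among these genes without belonging to them.

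Shares among the 10 genes do not depend on how a library is scaled. The summed FPKM of the 10 genes was 371, 401 and 303. MCL1 made up 50.8% of it with empty vector, 42.9% with WT and 44.7% with K80R. The share of MCL1 was thus highest in empty vector, with the other libraries near each other. BCL2A1 made up 0.887%, 3.69% and 0.934%. The effectors together held 17.8%, 21.6% and 23.1%, of which BAX alone held 15.6%, 19.0% and 19.8%. The BH3-only genes held 20.8%, 19.5% and 19.2%, and within them the share of PMAIP1 was 13.9%, 10.3% and 11.9% and that of BBC3 4.30%, 5.51% and 3.70%.

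The anti-apoptotic genes together held 61.5%, 58.8% and 57.6% of the family's FPKM, a ratio to the effector and BH3-only genes of 1.60, 1.43 and 1.36. Without MCL1 that ratio was 0.276, 0.387 and 0.306, highest in the WT library. The order of the libraries by this ratio therefore depended on MCL1. These sums compare mRNA per length and not protein. Family genes outside the 10 are not in them, such as BCL2L2 at 7.54, 8.70 and 5.81 FPKM and BAD at 9.80, 5.69 and 4.70.

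**Figure D4:**
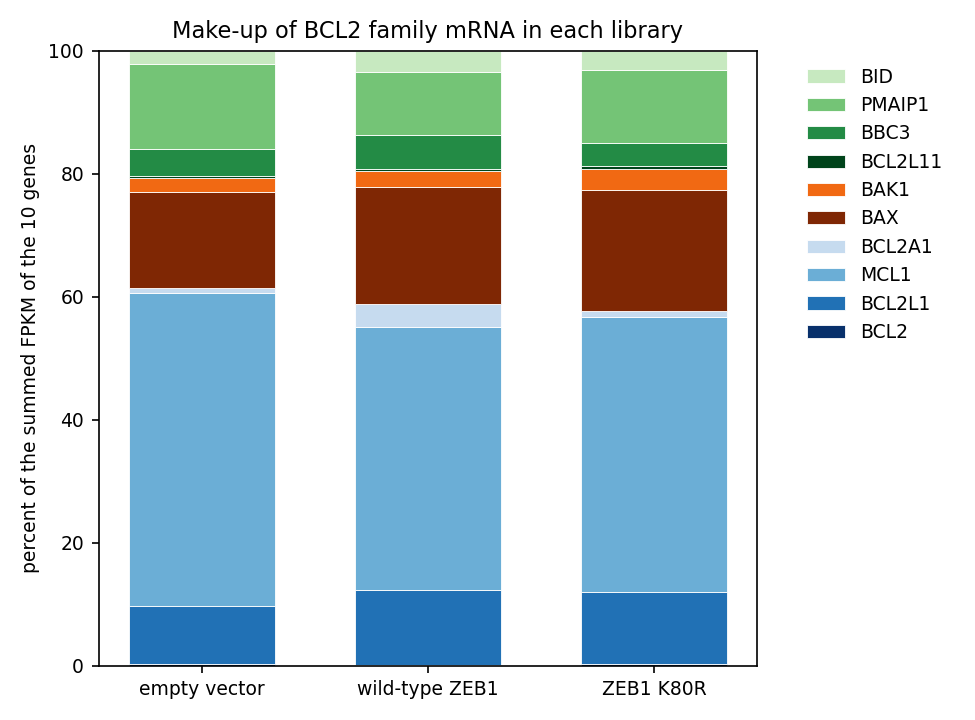
Percent of the summed FPKM of the 10 genes held by each gene in the 3 libraries, 1 bar per library; anti-apoptotic genes are blue, effectors brown and orange, BH3-only genes green. MCL1 holds 50.8%, 42.9% and 44.7%, and BCL2A1 3.69% in the WT library.

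Counts for the lists of related genes that follow stand beside the same background: 14.2% of all genes compared were higher and 11.1% lower in WT against empty vector, 12.6% and 13.0% in K80R against empty vector, and 4.42% and 5.18% in K80R against WT. Scaled to a common sum, the all-gene counts against empty vector were 984 higher and 4818 lower in WT, and 922 higher and 4721 lower in K80R. List counts against empty vector therefore depend on the scaling and are given both ways.

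Of 17 further BCL2-related genes 11 passed the FPKM limit and count as measured, and BCL2L10 and HRK had 0 reads in every library. For WT against empty vector 1 was higher and 1 lower, or none and 6 at a common sum. For K80R against empty vector none was higher and 4 were lower, or none and 10 at a common sum. For K80R against WT none was higher and 2 were lower under both scalings. BAD, a BH3-only gene whose protein is switched off by survival kinases, had an FPKM of 9.80, 5.69 and 4.70, highest in empty vector. BOK, a BAX-like effector gene, had 4.18, 2.99 and 2.30, and BCL2L13, a mitophagy receptor gene, had 15.1, 9.92 and 9.29. The mitophagy genes BNIP3L, at 31.9, 49.4 and 25.1, and BNIP3, at 22.5, 29.2 and 16.7, were highest in the WT library and were lower in K80R than in WT, while BNIP3L in WT against empty vector was within range at a common sum. The median difference of the 11 was −0.16, −0.41 and −0.26 in the 3 comparisons, and −0.62, −0.86 and −0.33 at a common sum.

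Of 8 measured genes of the apoptosome and of mitochondrial release, 2 were lower and none higher in WT and in K80R against empty vector, and all 8 were within range for K80R against WT. The lower genes numbered 4 in WT and 6 in K80R against empty vector at a common sum. ENDOG, a mitochondrial nuclease, had an FPKM of 23.0, 8.91 and 5.89, and VDAC3, a channel of the outer membrane, had 63.9, 38.5 and 35.5. CYCS, which encodes cytochrome c, was within range at 41.0, 34.3 and 31.8, and the apoptosome scaffold APAF1 at 3.87, 3.13 and 3.53. CYCS was lower than empty vector in both libraries, and APAF1 in WT, at a common sum. The medians against empty vector were −0.12 and −0.37, or −0.58 and −0.82 at a common sum, and the median of K80R against WT was −0.24.

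All 7 measured caspase genes were within range for WT against empty vector, and 1 was lower at a common sum. CASP2 was higher in K80R than in the other libraries, at 2.48, 2.17 and 4.48, but against empty vector it was within range at a common sum. There 3 caspase genes were lower in K80R against empty vector and none was higher. The death receptor caspase gene CASP8 stood at 5.18, 4.604 and 3.97, within range, and was lower than empty vector in both libraries at a common sum. The caspase medians were −0.10, −0.12 and −0.17, and −0.53, −0.55 and −0.19 at a common sum.

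Of 5 measured genes of inhibitor of apoptosis proteins, which block caspases, 1 was higher and 2 lower in WT against empty vector. In K80R none was higher and 2 were lower, both against empty vector and against WT. With equal sums, 3 were lower in K80R against empty vector, 1 was higher in K80R against WT, and the other counts were equal. The higher one was BIRC6, whose ratio on FPKM + 1 was 1.49, just short of the limit. BIRC3 (cIAP2) was at 0.578, 4.56 and 0.429, from 69, 473 and 43 reads. BIRC3 passed the FPKM limit only through the WT library, so its counted differences are not independent of that filter. BIRC2 (cIAP1) was at 14.7, 21.6 and 11.2, and the WT library was highest for both genes. XIAP, a direct caspase inhibitor, was at 10.7, 5.31 and 6.17, and the mitotic BIRC5 (survivin) at 46.5, 24.8 and 23.3, with empty vector highest for both. The medians were −0.09, −0.37 and −0.09, or −0.54, −0.82 and −0.07 at a common sum.

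Of 7 measured death receptor pathway genes, 1 was higher and 2 lower in WT against empty vector, 2 were lower in K80R against empty vector, and all 7 were within range for K80R against WT. TNFRSF10B, the TRAIL receptor DR5, was at 133, 216 and 193, and its call in WT ended at a common sum, where none was higher. The adaptor genes FADD, at 19.4, 7.32 and 6.36, and TRADD, at 11.6, 7.09 and 4.68, were the lower ones in both libraries. The medians were 0.04, 0.22 and −0.13, and the first pair turned to −0.36 and −0.22 at a common sum.

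Of 17 measured genes whose proteins act on transcription of family members, 7 were higher and none lower in WT against empty vector, 1 was higher in K80R against empty vector, and 4 were lower in K80R against WT. When scaled to a common sum, 4 were higher and 3 lower in WT against empty vector, none was higher and 5 were lower in K80R against empty vector, and 4 were lower in K80R against WT. RELB, an NF-κB subunit gene, had an FPKM of 5.99, 18.5 and 4.16, and NFKB2 had 19.6, 55.0 and 18.2. The WT library was high for both, as it was for BCL2A1. Other subunit genes differed from this profile. RELA, at 10.9, 23.2 and 16.3, lay higher in K80R than in empty vector, though within range. REL, below the FPKM limit, had 0.368, 0.303 and 0.370. NFKB1 had 10.4, 15.4 and 8.51, and DDIT3, which encodes the stress factor CHOP, had 2.12, 5.49 and 3.96, with the K80R call against empty vector lost at a common sum. The medians were 0.49, 0.11 and −0.33, and 0.10, −0.31 and −0.35 at a common sum.

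Of 14 measured genes that act on the stability or activity of member proteins, 2 were higher and 1 lower in WT against empty vector, 1 was higher and 2 lower in K80R against empty vector, and all 14 were within range for K80R against WT. Scaling to a common sum left 1 higher and 4 lower in WT, and none higher and 5 lower in K80R, against empty vector. MAPK3, the ERK1 kinase gene, was at 4.79, 11.8 and 7.88, and DYNLL1, a dynein light chain gene whose protein binds BIM, at 25.4, 41.1 and 32.9. The calls of MAPK3 in K80R and DYNLL1 in WT, both against empty vector, ended at a common sum. MARCH5, a mitochondrial ubiquitin ligase gene, was at 13.97, 8.79 and 8.72, and the survival kinase gene AKT1 at 16.9, 12.3 and 10.7, with empty vector highest for both. The MCL1 ligase gene HUWE1, at 24.7, 28.96 and 33.6, and the MCL1 deubiquitinase gene USP9X, at 16.5, 15.3 and 18.1, were within range. The medians were −0.03, 0.0011 and −0.0054, and those against empty vector were −0.47 and −0.43 at a common sum, while that of K80R against WT turned to 0.01.

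Over the 69 measured genes of the 7 lists, 12 were higher and 8 lower in WT against empty vector, 3 were higher and 12 lower in K80R against empty vector, and 1 was higher and 8 lower in K80R against WT. These counts were 6 and 22, none and 34, and 2 and 8 at a common sum. Their medians were 0.02, −0.14 and −0.18, against 0.01, 0.0045 and −0.02 over all genes compared.

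**Figure D5:**
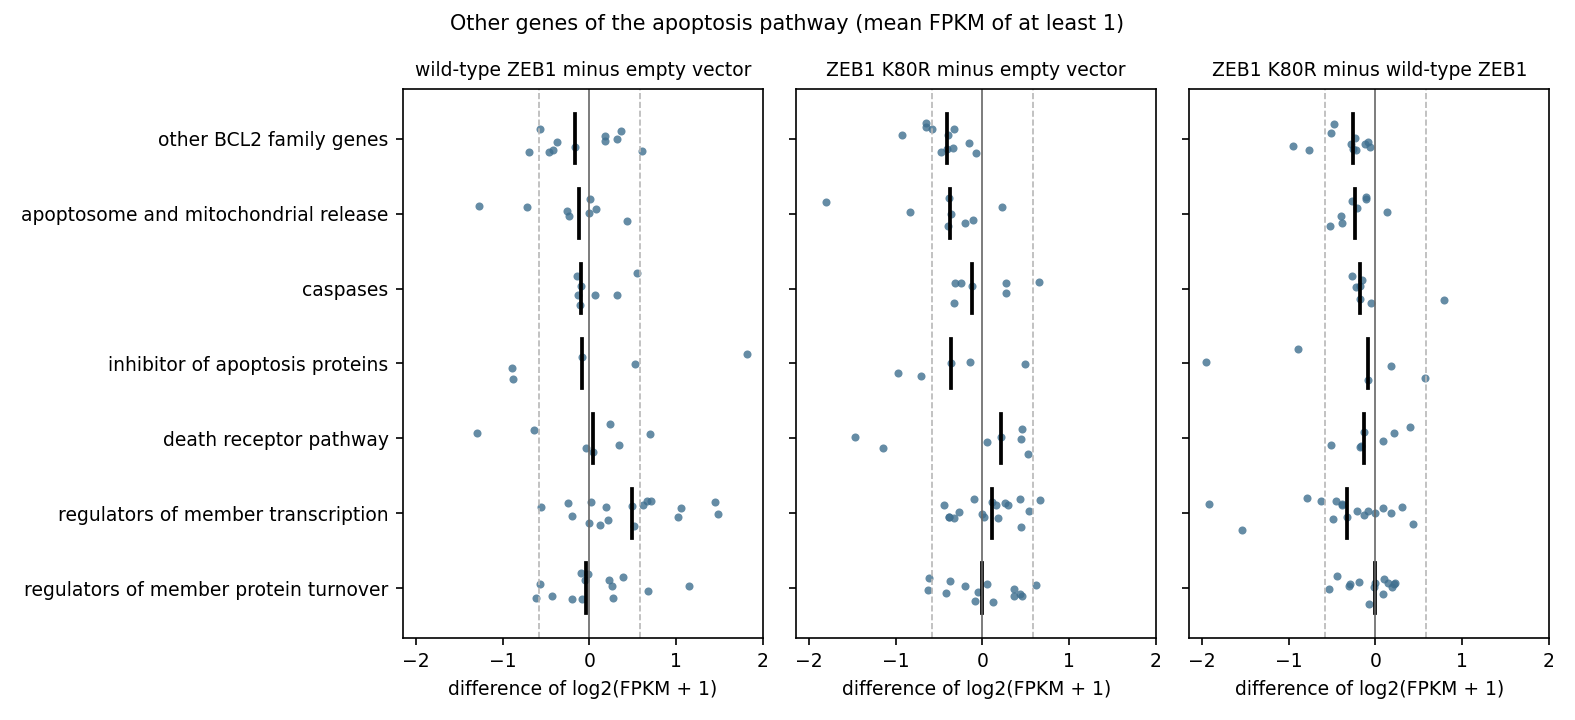
Difference of log2(FPKM + 1) between each pair of libraries for the genes of 7 apoptosis-related lists that passed the FPKM limit; points are genes (spread vertically at random), black bars are list medians and dashed lines mark a ratio of 1.5. The regulators of transcription have a median of 0.49 for WT minus empty vector, the highest of the 7 lists in that panel.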

How the data were processed

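Total RNA of 3 cultures was sequenced, per the labels' protocols, after library construction with a SMARTER mRNA kit. The authors deposited FPKM per gene. DESeq2 1.20.0, featureCounts 1.5.0-p3, CASAVA and the build hg38 appear in the submitters' processing notes, without roles. The aligner, strand setting and annotation are not given in the sources used here. All 58735 identifiers, and the lengths of all 10 members, matched GENCODE release 29. Lengths are unions of exons, so FPKM can understate genes with many isoforms.

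FPKM times length was a whole multiple of 1 step per library (tolerance 0.05 reads) for 100.0% of genes above 0. This gave the reads, which served for exact Poisson intervals of levels and conditional (Clopper-Pearson) intervals of ratios. PCR copies, which these intervals ignore, are not independent reads. Differences were taken on log2(FPKM + 1), a scale that understates changes of low genes, over 12605 genes that averaged an FPKM of 1 or more. A gene high in 1 library can pass through that library alone. Python 3.11.15, pandas 2.3.3 and scipy 1.17.1 were used, and recovery of reads was tested on simulated data.

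Members and lists were chosen with earlier results of these data known. Named genes were the members, ZEB1, up to 3 genes per list and comparison past 1.5-fold, and the 3 genes nearest in profile to the 2 members of widest span. APAF1, CYCS, CASP8, RELA, REL, HUWE1 and USP9X, the colon, leukocyte, endothelial, fibroblast and neuronal markers, and overlapping genes with reads were added as references. Alternatives were another pseudocount, other filters, scaling to a common sum or by the median ratio, and a 2-fold limit. At the common sum the same 12605 genes were used. The pseudocount of 1 was added after that scaling, which made the values larger than FPKM. This setting therefore changed both the scaling and the weight of the pseudocount.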

Additional observations from a re-analysis of the deposited data

How the results depend on the processing

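Scaling by the median ratio left every count of members and of all genes within 1.5 times its value. It also left all 30 differences of members within their counting error. The median difference over all genes compared was already 0.01, 0.0045 and −0.02 in the 3 comparisons before this scaling. It therefore had little to change, and this stability is no check on the results. At a common sum, for WT against empty vector, 1 member was higher and 3 were lower, and over all genes 984 were higher and 4818 lower. For K80R against empty vector 4 members were lower, and 922 genes were higher and 4721 lower. For K80R against WT 873 genes were higher, at a setting where the pseudocount also weighed less. With a 2-fold limit 1 member was higher in WT against empty vector and 1 lower in K80R against WT. Over all genes that limit gave 690 higher and 477 lower, 620 and 561, and 207 and 144 in the 3 comparisons. With the FPKM limit raised to 5, the counts were 980 and 707, 750 and 975, and 152 and 344. A filter at 0.1 or no filter gave 2786 higher in WT and 2965 higher in K80R against empty vector, and 1390 higher and 1127 lower in K80R against WT. Of the 42 counts over the 7 gene lists, 18 moved by over 1.5 times at the common sum, 10 with the pseudocount of 0.1 and 20 with the 2-fold limit. A pseudocount of 0.1 gave 962 and 1010 for the last comparison. The members at least 1.5-fold apart were the same genes under the pseudocount, the 3 filters and the median ratio. No paired analysis was possible because each group has 1 library, and for the same reason no library could be left out. Shares of reads, which are not per length, differed from shares of FPKM for all 30 values: MCL1 held 61.7%, 54.2% and 55.4% of the members' reads. BCL2A1 rests on 41 to 222 reads and BCL2 on 71 to 184, which limits both.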

Other observations

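A pair of receptors for the death ligand TRAIL differed in level. TNFRSF10B had an FPKM of 133 with empty vector, 216 with WT and 193 with K80R, while TNFRSF10A had 17, 0 and 1 reads in these libraries. TNFRSF10A was chosen after its values were seen and lay under the limit on mean FPKM. DIABLO, whose protein SMAC releases caspases from their inhibitors, appears under a pair of identifiers, at 0.158, 0.471 and 0.754 FPKM for one and 0.455, 0 and 0.0319 for the other. Reads of this gene can be divided between them or dropped as ambiguous, so its level is uncertain.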
